A study of Mus musculus with 6 samples.

Results

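Trhr, Camk4 and P2rx1 are 3 calcium signaling genes whose probes (ASMM10P013436, ASMM10P018312 and ASMM10P048875, 1 for each gene) were chosen by their measured values, since all 3 were listed for a difference between Nrf2 (+/+) and Nrf2 (−/−) hippocampus in the same arrays. They are 3 of the 60915 probes left on each array after control probes were set aside. The difference between the genotypes is therefore described here with no p for these genes, and where they are counted past the limits of the study the count is a description too. The rest of the account is on their signal in each mouse, the spread between arrays of 1 mouse each and what the scaling of the arrays did to them. RNA came from the hippocampus of male ICR mice aged 3 to 4 months, 3 of them wild type, Nrf2 (+/+), and 3 with the Nrf2 gene knocked out, Nrf2 (−/−). The labels name no drug or other agent for either group. The sources name no driver that limits the knockout to a tissue, so a change that began in the hippocampus and one that began elsewhere cannot be told apart. Each mouse was read on 1 Arraystar mouse lncRNA array, which carries probes for mRNAs and lncRNAs, after rRNA removal and random-primed labelling with 1 dye (Cy3).

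All 3 genes belong to calcium signaling, in which receptors and channels raise calcium inside the cell and kinases respond to it. Trhr encodes the receptor for thyrotropin-releasing hormone, which couples through a G protein to phospholipase C and so to release of calcium from internal stores. P2rx1 encodes an ATP-gated cation channel of the plasma membrane, best known from smooth muscle and platelets, through which calcium can enter. Camk4 encodes calcium/calmodulin-dependent protein kinase IV, a kinase found in neuronal nuclei that phosphorylates CREB, a transcription factor of activity-dependent genes. Nrf2, encoded by Nfe2l2, is itself a transcription factor that switches on antioxidant genes. The gene identifiers in NCBI are 22045 for Trhr on chromosome 15, 12326 for Camk4 on chromosome 18 and 18436 for P2rx1 on chromosome 11.

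The arrays differed in overall brightness, which bears on all 3 genes. The median signal of a probe was between 86.0 and 107.2 on the Nrf2 (+/+) arrays and between 135.9 and 181.1 on the Nrf2 (−/−) arrays, so every Nrf2 (−/−) array was brighter. Before any scaling between arrays, 97.0% of the 43528 tested probes had a higher mean in Nrf2 (−/−) mice, with a median difference of 0.62 on the log2 scale. Quantile normalization, which gives all arrays the same distribution of signals, removes such a shift, and the main values below are log2 signals after it. A probe was tested where the scanner software called it well above background on 3 or more of the 6 arrays. Nfe2l2 went from 12.20 ± 0.24 (SD, n = 3) to 7.93 ± 0.10 (SD, n = 3) log2 after normalization, the direction that the genotype labels call for. The tissue could not be checked in the same way, because 0 of 53 genes listed as markers of hippocampal neurons, glia, vessels, blood and neighbouring brain regions had a probe named in the tables used here. In whole tissue, fewer cells of a type and less RNA per cell cannot be told apart.

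Trhr, the hormone receptor, had a lower normalized signal in Nrf2 (−/−) mice. Its log2 signal was 11.45, 11.50 and 11.46 in Nrf2 (+/+) replicates 1, 2 and 3, and 10.93, 10.72 and 10.91 in Nrf2 (−/−) replicates 1, 2 and 3. The genotypes did not overlap, and the lowest Nrf2 (+/+) mouse lay 0.52 above the highest Nrf2 (−/−) mouse. The means were 11.47 ± 0.03 (SD, n = 3) and 10.86 ± 0.12 (SD, n = 3), a log2 fold change of −0.61 with a standard error of 0.18 from limma, or 1.531-fold lower. That fold lies just above the limit of 1.5-fold that the study used for mRNAs. Nrf2 (+/+) mice were close together, with a coefficient of variation of 1.8% against 7.8% in Nrf2 (−/−) mice. Pooled over both genotypes, the SD of Trhr was 0.084. The p by which the 3 genes were listed depends on this spread as well as on the difference, so the SDs are given as a description.

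Camk4, the nuclear kinase, was also lower in Nrf2 (−/−) mice after normalization, with more scatter. Its log2 signal was 10.47, 10.44 and 10.70 in Nrf2 (+/+) replicates 1, 2 and 3, and 10.04, 9.45 and 10.01 in the Nrf2 (−/−) replicates in the same order. There was no overlap, with a gap of 0.40 between the groups, and Nrf2 (−/−) replicate 2 stood well below the other Nrf2 (−/−) mice. Nrf2 (+/+) mice averaged 10.53 ± 0.14 (SD, n = 3) and Nrf2 (−/−) mice 9.84 ± 0.33 (SD, n = 3). The log2 fold change was −0.70 with a standard error of 0.23, or 1.623-fold lower. The coefficient of variation was 10.2% in Nrf2 (+/+) and 21.2% in Nrf2 (−/−) mice. The pooled SD was 0.254.

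P2rx1, the ATP-gated channel, moved the other way. Its log2 signal was 6.78, 6.67 and 6.94 in Nrf2 (+/+) replicates 1, 2 and 3, and 7.21, 7.81 and 7.55 in Nrf2 (−/−) replicates 1, 2 and 3. The lowest Nrf2 (−/−) mouse was 0.27 above the highest Nrf2 (+/+) mouse, the narrowest gap among the 3 genes. Nrf2 (+/+) mice averaged 6.80 ± 0.14 (SD, n = 3) and Nrf2 (−/−) mice 7.52 ± 0.30 (SD, n = 3). The log2 fold change was 0.73 with a standard error of 0.22, or 1.657-fold higher. The coefficient of variation was 9.5% in Nrf2 (+/+) mice and 20.6% in Nrf2 (−/−) mice, so that in each of the 3 genes the Nrf2 (−/−) mice were the more scattered group. The pooled SD of P2rx1 was 0.235.

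The study listed mRNAs with an unadjusted p under 0.05 and a fold change above 1.5. All 3 genes, which the study had listed, lay past these limits in limma. Over all tested probes, 2.66% lay past the same limits and were lower in Nrf2 (−/−) mice, and 1.25% were higher. After Benjamini-Hochberg adjustment over 43528 probes, 0.0482% of probes had an adjusted p under 0.05, and 0 of the 3 genes did. Nrf2 (−/−) arrays lay wholly below Nrf2 (+/+) arrays in 6.23% of probes, as for Trhr and Camk4, and wholly above in 4.25%, as for P2rx1. The choice of the genes fixed the count at the unadjusted limits and favoured full separation of the arrays, and nothing is read from either. The count of 0 at the adjusted limit stands beside a share of 0.0482% over all probes, so nothing is read from it for these genes either.

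Before normalization the picture was different for the genes with lower values. The deposited Trhr signal was 2634.1, 2245.6 and 2194.5 in Nrf2 (+/+) replicates 1, 2 and 3 and 2628.8, 2052.7 and 2142.8 in the Nrf2 (−/−) replicates. The groups overlapped almost fully, and the means differed by −0.06 on the log2 scale. For Camk4 the deposited signals were 1283.9, 1092.2 and 1275.1 in Nrf2 (+/+) mice and 1452.4, 856.9 and 1148.0 in Nrf2 (−/−) mice, in the order of the replicates. Nrf2 (−/−) replicate 1 was the brightest of the 6 arrays for this probe, replicate 2 the dimmest, and the log2 difference between the means was −0.11. P2rx1 was apart from the start, at 93.1, 84.5 and 84.0 in Nrf2 (+/+) mice and 211.5, 292.5 and 203.4 in Nrf2 (−/−) mice. Here the difference before normalization was 1.42 on the log2 scale, or 2.671-fold, and the groups were 1.13 apart. Without scaling between arrays, 42.8% of all tested probes lay past the 1.5-fold and p limits, and 1 of the 3 genes did.

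**Figure D1:**
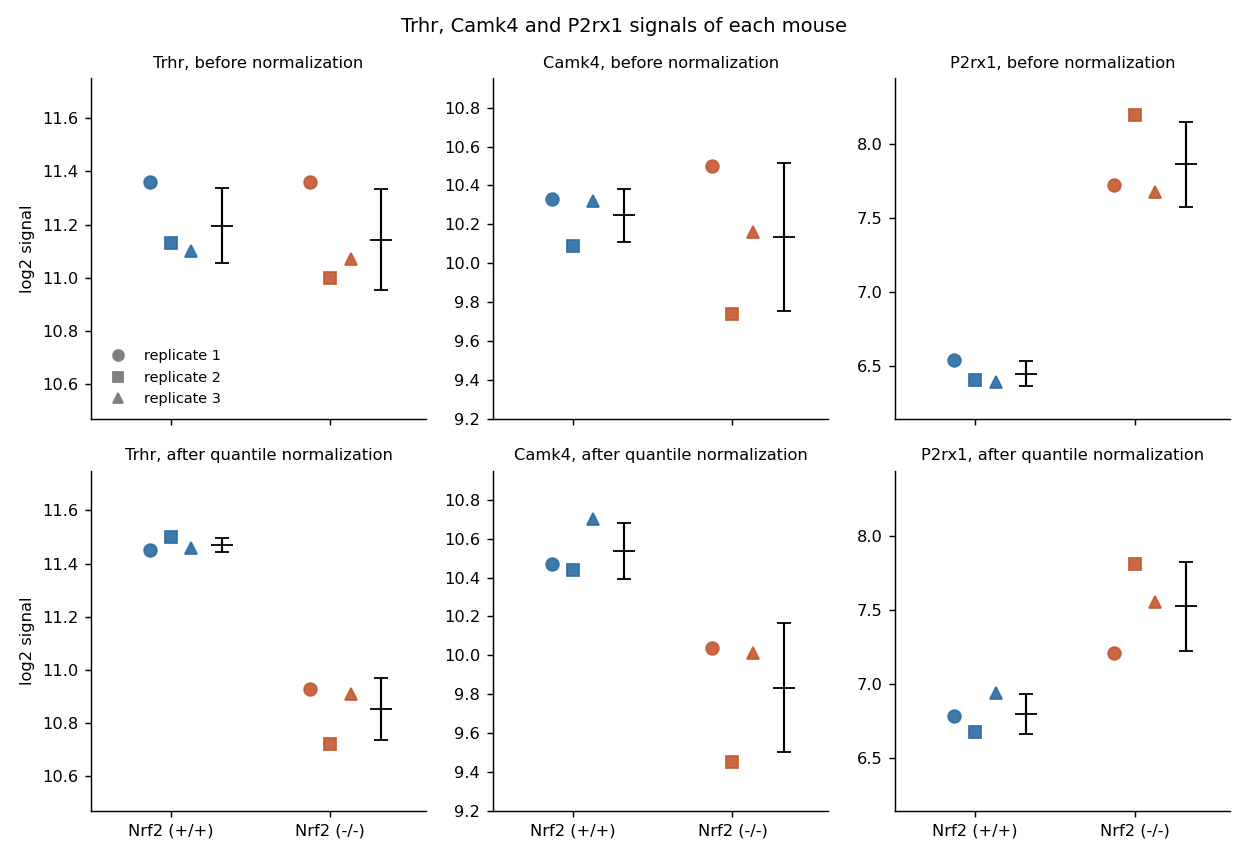
Log2 signals of Trhr, Camk4 and P2rx1 in each mouse (points, with the replicate number as the shape) before scaling between arrays (upper panels) and after quantile normalization (lower panels), with the mean and SD of 3 mice beside each group and 1 scale for both panels of a gene. Trhr and Camk4 overlap between the genotypes in the upper panels and separate in the lower ones, and P2rx1 is higher in Nrf2 (−/−) mice in both.

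The correction that normalization made can be read for each array. For Trhr, normalization added 0.09, 0.37 and 0.36 log2 units to Nrf2 (+/+) replicates 1, 2 and 3 and changed the Nrf2 (−/−) replicates by −0.43, −0.28 and −0.15. For Camk4 the Nrf2 (+/+) arrays gained 0.14, 0.34 and 0.38 and the Nrf2 (−/−) arrays changed by −0.47, −0.29 and −0.15. For P2rx1, a dimmer probe, the changes were 0.24, 0.27 and 0.55 in Nrf2 (+/+) and −0.52, −0.38 and −0.12 in Nrf2 (−/−) mice. For these 3 probes it thus raised every Nrf2 (+/+) array and lowered every Nrf2 (−/−) array. The lower levels of Trhr and Camk4 are levels relative to the other probes of the array. Whether the brighter Nrf2 (−/−) arrays carried more labelled RNA or were labelled or scanned brighter was not tested.

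Other ways of scaling kept the direction of each gene and changed its size. A shift of each array to its 75th percentile gave log2 fold changes of −0.65 for Trhr, −0.71 for Camk4 and 0.82 for P2rx1. A shift to 15 reference-gene probes, chosen after the data were seen, gave −0.56, −0.62 and 0.91, which left Trhr under the 1.5-fold limit at 1.479-fold. These reference probes were themselves 0.51 brighter in Nrf2 (−/−) mice before scaling, close to the 0.60 of the 75th percentile. With normexp, a model-based background correction that was run on the median spot signal with an offset of 50 added, P2rx1 came to 0.50, Trhr to −0.56 and Camk4 to −0.68, and 1 of the 3 genes lay past the limits beside 1.99% of all probes.

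The spots themselves were well measured. Each probe was present as 1 spot per array, well above background on all 6 arrays, with no saturated spot and no outlier flag. The median local background was between 16 and 30 on the deposited scale. P2rx1 was the probe nearest to it, with a spot median of 117.5 to 125.0 in Nrf2 (+/+) and 236.0 to 325.0 in Nrf2 (−/−) mice before background subtraction. The scanner software gave its processed signal an error of 10.22% to 12.75%, against 10.00% to 10.02% for Trhr and Camk4. As 1 spot carries each value, the scatter between spots had to be taken from other probes, those spotted 20 times on each array. Their SD between spots was 0.033 to 0.043 log2 units at signals of 10 to 12 log2, the range of Trhr and most Camk4 values. At 5 to 8 log2, where P2rx1 lies on 5 of the 6 arrays before normalization, it was 0.093 to 0.202, from 1 or 2 such probes per array. On the array of Nrf2 (−/−) replicate 2, where P2rx1 was at 8.19, it was 0.071 at 8 to 10 log2.

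On each array the brightness of the Trhr probe lay between the percentiles 76.2 and 82.1 of the tested probes, that of Camk4 between 63.6 and 76.0, and that of P2rx1 between 25.6 and 42.2. Brightness depends on the sequence of a probe as well as on its transcript, so these positions do not rank the transcripts.

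Nrf2 (−/−) replicate 2 was the extreme mouse for all 3 genes. It had the lowest Trhr of all mice, the lowest Camk4 and the highest P2rx1, with deviations from its genotype mean of −0.13, −0.38 and 0.29 log2 units. Nrf2 (−/−) replicate 1 deviated by 0.08, 0.20 and −0.32 and replicate 3 by 0.06, 0.18 and 0.03 for Trhr, Camk4 and P2rx1. In Nrf2 (+/+) mice no such order was seen, as Trhr deviated by at most 0.03, and Camk4 and P2rx1 were both highest in replicate 3, 0.16 and 0.14 above the mean. Nrf2 (−/−) replicate 2 was the farthest of the 3 Nrf2 (−/−) arrays from the Nrf2 (+/+) mean for 59.0% of 43426 probes, against 24.0% for replicate 1 and 17.1% for replicate 3, so it was often the extreme array for other probes as well. Without Nrf2 (−/−) replicate 2, the log2 fold changes were −0.55 for Trhr, −0.51 for Camk4 and 0.58 for P2rx1. All 3 were then under the 1.5-fold limit, at 1.462-fold, 1.423-fold and 1.499-fold, while 4.78% of all probes lay past the limits.

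**Figure D2:**
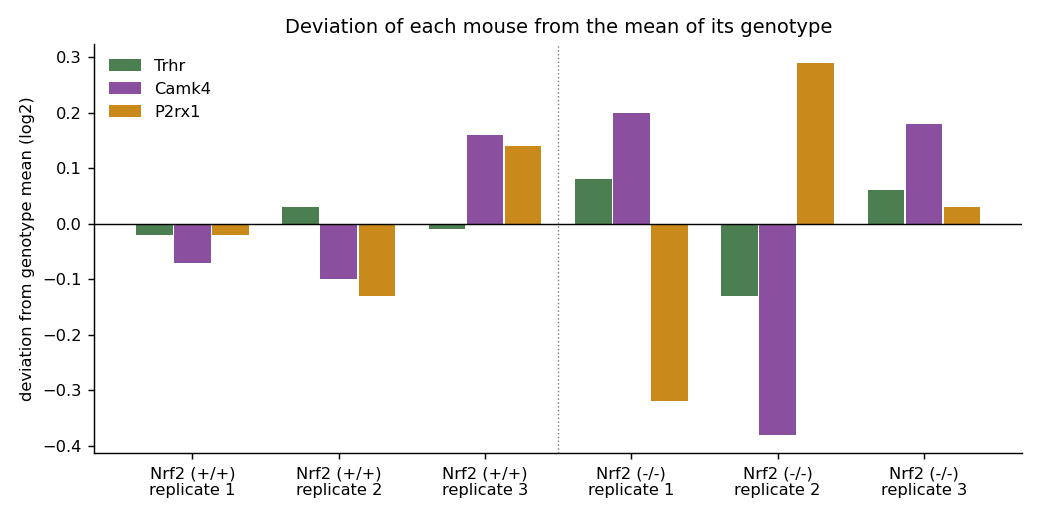
Deviation of each mouse from the mean of its genotype in log2 signal after quantile normalization, with 1 bar for each of Trhr, Camk4 and P2rx1. Nrf2 (−/−) replicate 2 has the bars of −0.13, −0.38 and 0.29, and in Nrf2 (+/+) mice the Trhr bars are within 0.03 of 0.

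Arrays of equal scan time were taken to share a slide. Counted in this way, the arrays lay on 4 slides, and 2 of these held a mouse of each genotype. Replicate 2 of Nrf2 (−/−) and replicate 2 of Nrf2 (+/+) each had a slide with no other array of the study. For Nrf2 (−/−) replicate 2, the extreme one for the 3 genes, mouse and slide therefore cannot be told apart. On the slide with both replicates 1, the Nrf2 (−/−) mouse differed from the Nrf2 (+/+) mouse by −0.52 for Trhr, −0.43 for Camk4 and 0.43 for P2rx1. On the slide with both replicates 3 the differences were −0.55, −0.68 and 0.61. The direction of each gene after normalization was thus the same on both slides, with 1 mouse of each genotype on either. Before normalization P2rx1 was higher on both, by 1.18 and 1.28, while Camk4 differed by 0.18 on the slide of the replicates 1 and by −0.15 on that of the replicates 3, so its direction turned, and Trhr differed by no more than 0.03 in size on either. Blocking on slide in limma takes the difference from these 4 arrays alone and gave −0.53 for Trhr, −0.56 for Camk4 and 0.52 for P2rx1. In that fit 0 of the 3 genes lay past the limits, while 11.2% of all tested probes did. With a term for each slide and 1 for the genotype, it leaves very little to estimate the spread from, so neither count is firm. Both scan sessions also held both genotypes, and the differences within them were −0.62 and −0.57 for Trhr, −0.72 and −0.55 for Camk4, and 0.73 and 0.75 for P2rx1.

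**Figure D3:**
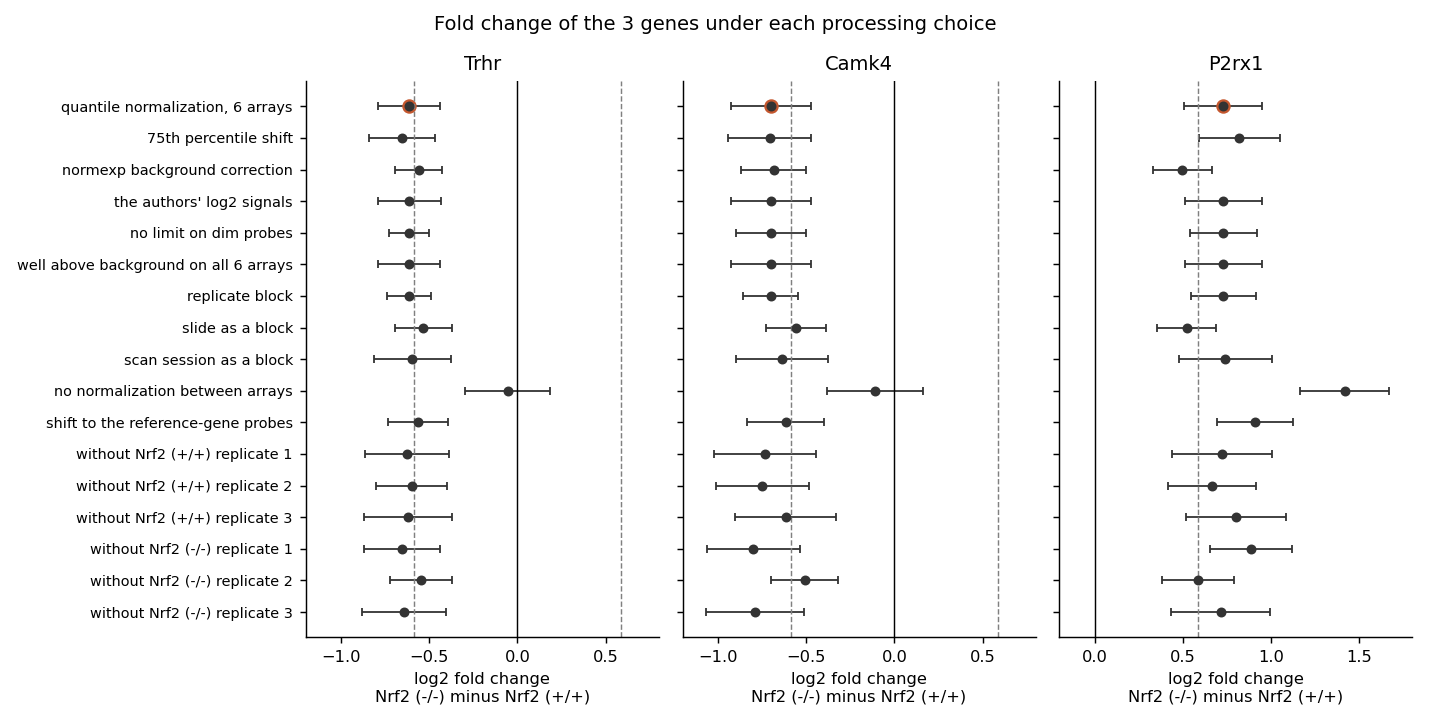
Log2 fold change (points) and its standard error (bars) of Trhr, Camk4 and P2rx1 under each processing choice and with each array left out in turn, with dashed lines at the 1.5-fold limit and a solid line at 0. The main value of each gene is orange, and all values of a gene lie on the same side of 0. The values without normalization between arrays, −0.06, −0.11 and 1.42, are the farthest from the main ones, and there the bars of Trhr and Camk4 cross 0.

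How the genes varied together is described here and was not tested. The members were chosen for the difference between the genotypes, each of 3 mice. Over 6 arrays the Pearson correlation of normalized log2 signals was 0.934 between Trhr and Camk4, −0.949 between Trhr and P2rx1 and −0.891 between Camk4 and P2rx1. Taken on the deviations from the genotype means, which leave the genotype difference out, it was 0.851, −0.842 and −0.548, with 4 degrees of freedom left. Nrf2 (−/−) replicate 2 had the largest deviation for Trhr and Camk4, and replicate 1 for P2rx1. Among 43365 probes, 153 (0.353%) had a correlation above 0.95 with Trhr over the 6 arrays, 474 (1.093%) with Camk4 and 100 (0.231%) with P2rx1, and 94, 169 and 76 had one below −0.95. On the deviations from the genotype means, 736 of the 43365 probes were above 0.95 with Trhr, 5356 with Camk4 and 311 with P2rx1. Below −0.95 on the deviations were 218, 1307 and 147 probes.

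The genes most like each member were taken from 391 others of the study's mRNA list, all chosen on the genotype difference as well. For Trhr these were Gm5136 (r = 0.9934 over 6 arrays), Sc5d, Nfx1, Lyve1 and Gstm1 (r = 0.9858), among which Sc5d encodes an enzyme of cholesterol synthesis and Gstm1 a glutathione transferase. Their log2 fold changes ran from −4.14 for Gm5136 to −0.67 for Nfx1. On the deviations from the genotype means, the correlation of these 5 genes with Trhr was between 0.71 for Gstm1 and 0.94 for Nfx1. For Camk4 they were Lonrf3 (r = 0.9963), Ppm1h, Mfsd2a, Cpa6 and Slc22a7 (r = 0.9900), of which Ppm1h encodes a protein phosphatase and Mfsd2a a lipid transporter of the blood-brain barrier. On the deviations it was between 0.97 and 0.99. Lonrf3 and Ppm1h had log2 fold changes of −0.68 and −0.70, next to the −0.70 of Camk4. For P2rx1 they were Dusp1 (r = 0.9741), Atp1a4, Glrp1, Actn4 and A2m (r = 0.9677), with 0.85 to 0.89 on the deviations. Dusp1, an immediate early gene that encodes a phosphatase of MAP kinases, had a log2 fold change of 0.81.

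Of 199 genes written down as parts of calcium signaling (the TRH system, purinergic receptors, the CaM kinase cascade, receptors coupled to phospholipase C or adenylyl cyclase, their G proteins, phospholipases and kinases, calcium channels, and calcium stores and pumps), 8 had a probe that the study's list of changed mRNAs names. These are Trhr, Camk4, P2rx1, P2rx5, Htr2b, Cacna1g, Plcd4 and Ryr1. P2rx1 was the 1 gene that was higher in Nrf2 (−/−) mice, and the other 7 were lower, all past the limits in the main fit, beside 1.25% of all tested probes that were higher and 2.66% that were lower. With the 75th percentile shift P2rx5 and Ryr1 fell short, at 1.428-fold and 1.420-fold, and with the scan session as a block Ryr1 did, at 1.465-fold. More were lost with normexp, which left 0 higher and 3 lower genes past the limits, beside 1.99% of all tested probes in either direction. The slide as a block left 0 and 4, beside 11.2% of all tested probes. Leaving out Nrf2 (−/−) replicate 2 also left 0 and 4, beside 4.78%. The median log2 fold change of the 8 was −0.69, against −0.01 over all tested probes. As the 8 were named only because they were listed for this difference, the choice fixed both the counts and the median, and they say nothing of the remaining 191 genes. Among those without a named probe were the hormone Trh and its degrading enzyme Trhde, the other P2X receptors except P2rx5, and Camkk1 and Camkk2, which encode the kinases that activate Camk4.

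**Figure D4:**
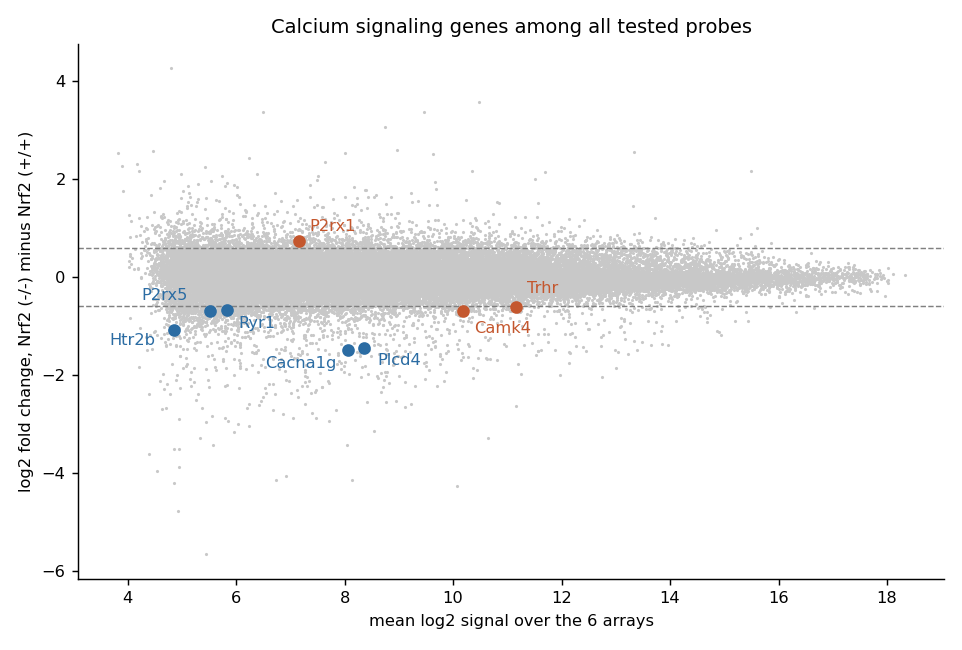
Log2 fold change (Nrf2 (−/−) minus Nrf2 (+/+)) against the mean log2 signal over 6 arrays for the 43528 tested probes (grey), with Trhr, Camk4 and P2rx1 in orange, 5 further calcium signaling genes in blue and dashed lines at the 1.5-fold limit. P2rx1 is the only one of the 8 above 0, and Trhr, at −0.61, is the closest to the limit.

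The second ATP-gated channel with a named probe was P2rx5, and it went in the direction opposite to P2rx1. Its log2 signal was 5.68, 5.88 and 6.05 in Nrf2 (+/+) replicates 1, 2 and 3 and 5.36, 5.17 and 5.01 in the Nrf2 (−/−) replicates, a log2 fold change of −0.69 with a standard error of 0.20. The groups were separate after normalization. Before it they overlapped, and the mean of Nrf2 (−/−) mice was 0.08 higher. P2rx5 stayed lower with the 75th percentile shift (−0.51), normexp (−0.26) and the shift to reference-gene probes (−0.43). The sign thus turned only where the arrays were not scaled. Within slides its difference was −0.32 for the replicates 1 and −1.04 for the replicates 3.

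Plcd4 encodes a phospholipase C, and Cacna1g encodes the pore of a low-voltage-activated T-type calcium channel. After normalization, though not before it, both had larger differences than each of the 3 genes. Plcd4 was at 9.46, 8.96 and 8.86 in Nrf2 (+/+) and 7.70, 7.81 and 7.39 in Nrf2 (−/−) mice, a log2 fold change of −1.46 with a standard error of 0.24. Before normalization the difference was −0.81, and the groups did not overlap there either. Cacna1g was at 9.15, 8.71 and 8.56 and at 6.85, 7.87 and 7.23, a log2 fold change of −1.49 with a standard error of 0.30. Its Nrf2 (−/−) mice were the most scattered of the 8 genes, with an SD of 0.52, and here replicate 2 was the mouse nearest to Nrf2 (+/+). Before normalization the difference was −0.83, and the groups overlapped.

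Ryr1, a calcium release channel of internal stores, and Htr2b, a serotonin receptor coupled to phospholipase C, were dim. Ryr1 was at 5.95, 6.26 and 6.31 in Nrf2 (+/+) and at 5.42, 5.28 and 5.79 in Nrf2 (−/−) mice, a log2 fold change of −0.68 with a standard error of 0.22. As with P2rx5, the sign turned without scaling, where the difference was 0.09. Htr2b was at 5.23, 5.38 and 5.59 and at 4.65, 3.82 and 4.47, with a log2 fold change of −1.09 and a standard error of 0.26. Before normalization the difference was −0.25 with overlap, and with normexp it was −0.31. It was well above background in Nrf2 (+/+) replicates 2 and 3 and Nrf2 (−/−) replicate 1 alone, which makes its fold change uncertain.

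**Figure D5:**
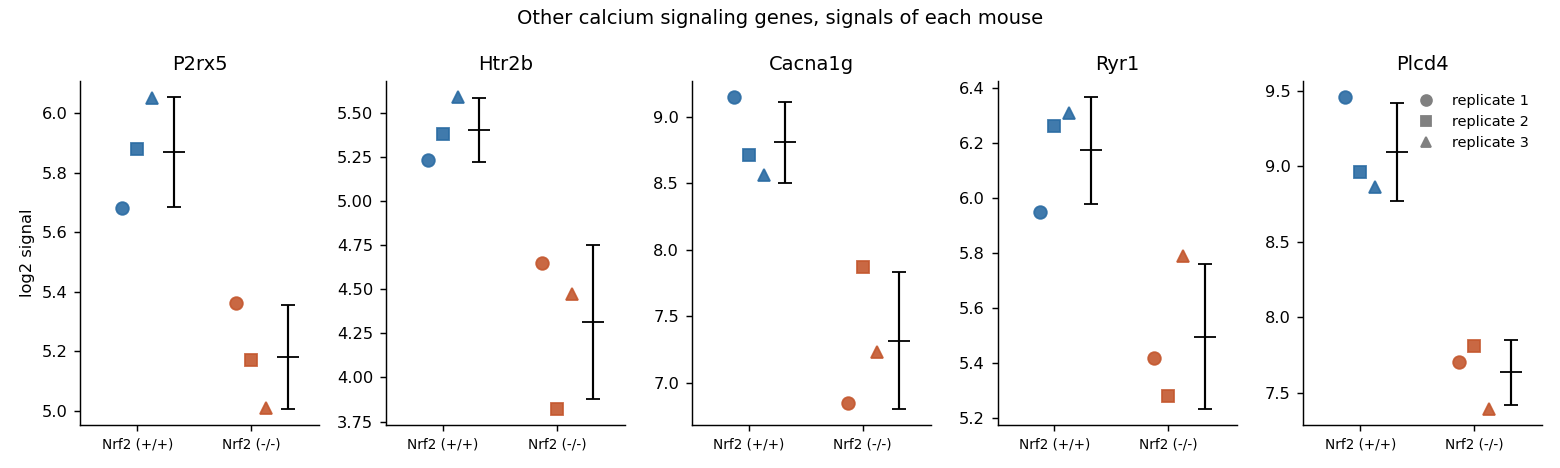
Log2 signals after quantile normalization of P2rx5, Htr2b, Cacna1g, Ryr1 and Plcd4 in each mouse, with the mean and SD of 3 mice beside each group and a scale of its own for each gene. All Nrf2 (−/−) points lie below all Nrf2 (+/+) points in each panel, and the widest gap, 1.05, is that of Plcd4.

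For P2rx1 the sequence around the start of the gene was searched for the elements that Nrf2 and CREB bind. In the RefSeq window of 250 bases before to 50 after the start (assembly GRCm38.p6), the core of the antioxidant response element, TGACNNNGC, had 0 matches on both strands, as had the full cAMP response element TGACGTCA and its shorter form TGACG, which the full element contains. Among 32851 such windows of the mouse genome, 12.4% held the first, 1.79% the second and 20.8% the third. These letters are thus absent from this window, and nothing follows for sites farther away. Windows of Trhr and Camk4 were not analysed here.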

How the data were processed

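The authors read the arrays with Agilent Feature Extraction (version 11.0.1.1 per the submitters' processing notes) and deposited its spot intensities, from which background had been subtracted, with no scaling between arrays. A deposited table holds log2 signals after their quantile normalization in GeneSpring GX. Here outlier-flagged spots were left out, log2 intensities were averaged per probe and quantile-normalized, and the result differed from the authors' log2 signals by a median of 0.000974. Probes above background on 3 or more arrays (43528) were fitted in limma 3.58.1 (R 4.3.3; lmFit and eBayes), with Benjamini-Hochberg adjustment over all of them. The rest used pandas 2.3.3, numpy 2.4.6, matplotlib 3.10.9 and scipy 1.17.1 under Python 3.11.15. The limma script was tested on simulated data.

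The files pair few probes with genes. The 412 probes of the study's mRNA list were named by matching its fold changes and p-values to those computed from the authors' log2 signals with an equal-variance test, within a relative tolerance of 1e-04, and each entry matched 1 probe. Its printed values were used for nothing else. The probe design follows mm9, and RefSeq names are of GRCm38.p6, so no gene coordinates are given.

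The genes, lists and limits were chosen with earlier results of these data known. Named were the 3 genes, Nfe2l2, each gene of the calcium signaling lists with a named probe, and the 5 genes most like each member by Pearson correlation. For the genes next to the members, 0 had a named probe. There was 1 array per mouse, so the spread between arrays holds differences between mice together with those of labelling, slide and spot. These cannot be told apart, and 3 arrays per genotype limit the precision. Arrays of equal scan time were taken as 1 slide.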

Additional observations from a re-analysis of the deposited data

How the results depend on the processing

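Trhr and Camk4 were lower and P2rx1 higher in Nrf2 (−/−) mice under every alternative that scaled the arrays to each other. Without normalization between arrays, chosen after seeing the data, the log2 fold changes were −0.06, −0.11 and 1.42, and 18399 probes lay past the limits as higher and 225 as lower (544 and 1156 in the main fit over all arrays), with 1 of the 3 genes and 2 lower calcium signaling genes among them. When single arrays were left out, Trhr ran from −0.65 to −0.55, Camk4 from −0.80 to −0.51 and P2rx1 from 0.58 to 0.89, higher probes from 353 to 2371, lower probes from 777 to 2011, the 3 genes past the limits from 0 to 3, higher calcium genes from 0 to 1 and lower ones from 4 to 7. The count of 0 came without Nrf2 (−/−) replicate 2, where 4.78% of all tested probes lay past the limits. Without Nrf2 (+/+) replicate 3, Camk4 alone of the 3 dropped out, at 1.533-fold with a standard error of 0.29 on the log2 scale. That fold is still above 1.5, so the limit on p was the one missed.

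Higher probes past the limits numbered 1003 with a 75th percentile shift and 362 among probes well above background on all 6 arrays. An equal-variance test in place of limma's gave 286. With the shift to reference-gene probes, 1295 higher and 677 lower of 43528 tested probes lay past the limits, with 2 of the 3 genes and 1 higher and 4 lower calcium genes. Normexp was run on the median spot signal in place of the processed signal and with an offset of 50. It gave 226 higher and 639 lower probes (1.99% of 43366 together), 1 of the 3 genes, 0 higher and 3 lower calcium genes. The slide as a block gave 2288 and 2607 probes (11.2% of 43513 together), 0 of the 3 genes, 0 higher and 4 lower calcium genes. For probes past the adjusted limit the equal-variance test gave 0, with 2535 at an unadjusted p under 0.05, and the replicate block 0, with 7090, against 6 higher and 15 lower probes in the main fit. The slide as a block gave 102 and 464, with Plcd4 and Cacna1g among them. That fit takes the genotype difference from 4 arrays alone and leaves very little to estimate the spread from, so these calls are not firm. Leaving out Nrf2 (−/−) replicate 2 gave 26 and 169, with Cacna1g. None of Trhr, Camk4 and P2rx1 passed this limit in any of the alternatives run, in some of which 0 probes did. The median of all probes moved to 0.12 with the reference-gene shift and to 0.62 without normalization.

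The replicate numbers were not used as a pairing. Deviations of same-numbered arrays correlated at −0.148, 0.426 and 0.812 for replicates 1, 2 and 3. From equal scan times, the mice of replicates 1 and of replicates 3 were taken to share a slide. With the replicate block the log2 fold changes were −0.61, −0.70 and 0.73, and the higher probes rose to 1235. Only replicate 3 of Nrf2 (−/−) and of Nrf2 (+/+), and replicate 2 of each, correlated best with their own number. The alternative of using every probe of the calcium signaling genes gave no separate value, as each of the 8 named genes had 1 named probe. Precision is limited by 3 mice per genotype and 1 spot per probe.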

Other observations

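Immediate early genes of neuronal activity, several of them known targets of the Camk4 substrate CREB, were looked up after their values had been seen, among the genes the study lists as changed. Arc, Egr4, Junb, Nr4a1 and Dusp1 were higher in Nrf2 (−/−) mice, in whom the Camk4 signal was lower, with log2 fold changes of 1.08, 0.71, 0.69, 0.73 and 0.81. Arc was at 9.18, 9.77 and 9.61 log2 in Nrf2 (+/+) and 10.38, 10.75 and 10.67 in Nrf2 (−/−) replicates 1, 2 and 3. All 5 had been listed for this difference, and in each the Nrf2 (−/−) mice lay wholly above the Nrf2 (+/+) mice after normalization, as in 4.25% of all tested probes. Nrf2 (−/−) replicate 2, lowest for Camk4, was the highest mouse for Arc, Egr4, Junb and Dusp1 and the lowest of its genotype for Nr4a1. Its array was the Nrf2 (−/−) array farthest from the Nrf2 (+/+) mean for 59.0% of 43426 probes, so nothing is read from these positions. No relation to Camk4 was tested.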
